A study of Mus musculus with 15 samples.

Results

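The 6 genes described here encode the 2 chains each of the receptors for interferon gamma (Ifngr1, Ifngr2), type I interferons (Ifnar1, Ifnar2) and interleukin 10 (Il10ra, Il10rb). They were listed by name, with earlier results of these data known, and are 6 of the 22350 protein-coding genes with a start on mouse chromosomes 1 to 19 and X. For each gene, tags were counted in 3 kb centred on its start and in consecutive 3 kb windows over its body and 20 kb on either side. The libraries were made by chromatin immunoprecipitation followed by sequencing (ChIP-seq) from C10 cells, a GFP-marked clone of the mouse pre-B line HAFTL that carries C/EBPα fused to the estrogen receptor (C/EBPαER). The cells were induced with β-estradiol, given as 100 nM in the labels, and grown with IL-3 and CSF-1, and they become macrophage-like over the following days. Chromatin was taken at 0, 3, 12, 24 and 48 hr post-induction (hpi), and antibodies to H3K27Ac (active regions), H3K4Me1 (poised and active enhancers) and H3K27Me3 (repressed regions) were used at each time. All groups share the C/EBPαER transgene and differ in time after induction. The labels also name control cells given the ethanol solvent, without stating whether these are the 0 hpi cells. There was 1 library for each mark and time, and all came from this 1 cell line. No difference between times could therefore be set against replicate error. The intervals given are 95% exact intervals for counting error only.

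These receptors belong to the class II cytokine receptor family. One chain of each pair binds the ligand with high affinity (Ifngr1, Ifnar2, Il10ra) and the other completes the signalling complex (Ifngr2, Ifnar1, Il10rb). The chains have no kinase activity and rely on bound Janus kinases, which phosphorylate Stat proteins that then enter the nucleus. Stat dimers bind the GAS element downstream of interferon gamma, a complex of Stat proteins with Irf9 binds the ISRE downstream of type I interferons, and Stat3 carries most of the interleukin 10 signal. In macrophages, interferons raise antimicrobial functions and interleukin 10 restrains inflammatory ones. Il10rb is shared with receptors for interleukin 22 and interferon lambda.

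The deposited files held 15.9 to 18.6 M tags per library for H3K27Ac, 11 to 17.8 M for H3K4Me1 and 15.4 to 31.6 M for H3K27Me3. All tag numbers below are after 1 tag per position was kept and each library was thinned to the smallest of its mark. A 3 kb window was called enriched from 34 tags for H3K27Ac, 27 for H3K4Me1 and 34 for H3K27Me3. A change was called when it reached 2-fold with 5 tags added to both counts. The labelled cell states were checked on marker genes. H3K27Ac at the start was at least 2-fold lower at 48 hpi for 8 of 8 pre-B markers, whose summed tags went from 10222 to 3337, and at least 2-fold higher for 8 of 8 macrophage markers, from 768 to 4106. Summed H3K27Ac of the 4 markers each of T cells, erythroid cells and fibroblasts stayed within 17 to 35, 86 to 143 and 13 to 33 tags, with the erythroid sum carried by Klf1 (71 to 105). Among these, Hbb-b1 and Pdgfra had 0 tags at 24 hpi. Setting background bins equal to 0 hpi would multiply the H3K27Ac tags of 3, 12, 24 and 48 hpi by 0.697, 0.904, 1.9 and 1.2, and setting bins enriched at all times equal would multiply them by 1.02 to 1.34. For H3K4Me1 the first would multiply the later libraries by 1.27 to 1.87 and the second by 0.836 to 0.941 at 3 to 24 hpi and by slightly over 1 at 48 hpi. Under these the median H3K27Ac change of all starts from 0 to 48 hpi moved from -0.14 to 0.00 and 0.11 on the log2 scale. Values are at equal totals unless another scaling is named.

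Of the 6 genes, 4 stand in a row, all on the plus strand, within 174 kb of chromosome 16 (mm9). Their starts follow in the order Ifnar2, Il10rb (33.4 kb further), Ifnar1 (79.0 kb further) and Ifngr2 (61.8 kb further). Il10rb (chr16:91406409-91426074) begins inside the Ifnar2 gene record (chr16:91373028-91419696) and overlaps its last 13.3 kb. Ifnar1 lies at chr16:91485483-91507686 and Ifngr2 at chr16:91547317-91565414. Ifngr1 is on chromosome 10 (chr10:19311755-19330035, plus strand) and Il10ra on chromosome 9 (chr9:45061922-45077232, minus strand).

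At the gene starts, all 6 receptor genes carried H3K27Ac in every library and none was enriched for H3K27Me3 in any. H3K27Ac was enriched at all 5 times at 44% of all starts, H3K27Me3 at 16.1% of starts at 0 hpi, and H3K27Ac at all times with H3K27Me3 at none at 39.5%. H3K27Me3 at the 6 starts lay between 2 and 12 tags. At these counts 2 steps passed 2-fold, Ifnar1 from 2 to 12 tags between 3 and 12 hpi (1.22% of all starts) and Il10ra from 3 to 11 between 24 and 48 hpi (3.64% of all starts), the latter with a ratio interval that held 1 (0.969 to 20.5). With equal signal in enriched bins the Il10ra step was 0.93 on the log2 scale and not called. The H3K27Ac levels were high among genes: at 0 hpi only 0.70% of starts lay above Ifngr2, 0.90% above Il10ra, and 20.9% above Ifngr1, the lowest of the 6. In the order of tags at 0 hpi (Ifngr2, Il10ra, Ifnar2, Il10rb, Ifnar1, Ifngr1), only the steps from Il10ra to Ifnar2 and from Ifnar1 to Ifngr1 exceeded counting error. At 48 hpi the order was Ifngr2, Ifnar2, Il10ra, Ifnar1, Il10rb, Ifngr1, with Il10ra now behind Ifnar2 (ratio of Ifnar2 to Il10ra with an interval of 1.07 to 1.38).

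Among the ligand-binding chains, Ifngr1 had 316, 374, 310, 399 and 273 H3K27Ac tags at 0, 3, 12, 24 and 48 hpi. Ifnar2 had 632, 690, 759, 837 and 552. Il10ra had 982, 748, 791, 902 and 454. Il10ra began within counting error of Ifngr2, and it was the only gene of the 6 past 2-fold between 0 and 48 hpi.

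Among the accessory chains, Ifngr2 had 1044, 995, 1019, 1257 and 624 H3K27Ac tags at the same times. Ifnar1 had 595, 524, 477, 600 and 418. Il10rb had 606, 404, 520, 588 and 402. All 6 genes had more tags at 24 than at 12 hpi and fewer at 48 than at 24 hpi. Of starts enriched at either time, 37.9% had a log2 value below 0 from 12 to 24 hpi and 80.2% from 24 to 48 hpi. The highest count of 4 genes (both Ifngr and both Ifnar genes) was at 24 hpi, as for 25.2% of starts enriched at any time. All 6 had their lowest count at 48 hpi, as did 49% of starts enriched at any time. With equal background 0 of the 6 were lowest at 48 hpi and all 6 highest at 24 hpi, beside 17.7% of enriched starts lowest at 48 hpi. With equal signal in always-enriched bins 2 were lowest at 48 hpi and 3 highest at 24 hpi, beside 19.3% of enriched starts lowest at 48 hpi. The share of enriched starts highest at 24 hpi was not computed under either scaling.

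**Figure D1:**
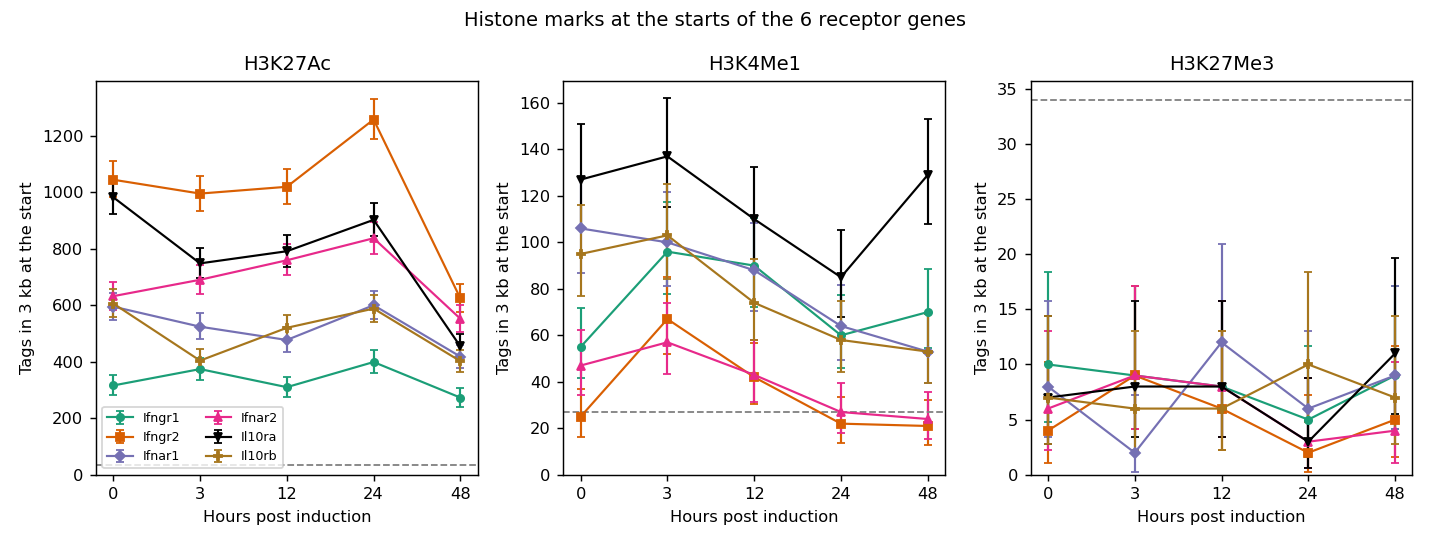
Tags in 3 kb at the start of each receptor gene (y axis, separate scale for each mark) against hours post induction (x axis, times evenly spaced). Bars are exact Poisson 95% intervals and the dashed line is the number of tags needed for enrichment. H3K27Ac of all 6 genes lies between 273 and 1257 tags, far above the line at 34, and H3K27Me3 stays at or below 12 tags.

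From 0 to 48 hpi, H3K27Ac at the Il10ra start went from 982 tags (922 to 1045) to 454 (413 to 498), a ratio of 0.462 (0.413 to 0.517). On the log2 scale with 5 tags added this was -1.10, and 1 of the 6 genes was thus called lower, beside 9.29% of all starts and 14.9% of starts enriched at 0 or 48 hpi. None was called higher (5.37% of all starts, 6.64% of enriched starts). Ifngr2 came next with a ratio of 0.598 (0.54 to 0.661), followed by Il10rb with 0.663 (0.583 to 0.754) and Ifnar1 with 0.703 (0.618 to 0.797). For Ifnar2 the ratio was 0.873 (0.778 to 0.981) and for Ifngr1 0.864, with an interval that held 1 (0.732 to 1.02). The median of the 6 was -0.55 on the log2 scale, beside -0.14 for all starts and -0.26 for enriched starts. Under the other 2 scalings, Ifngr1 and Ifnar2 changed direction (0.05 and 0.07 with equal background, 0.20 and 0.22 with equal signal in enriched bins), and Il10ra fell short of 2-fold (-0.84 and -0.69). Relative to the median of all starts, the changes were -0.96 for Il10ra, -0.59 for Ifngr2, -0.44 for Il10rb, -0.36 for Ifnar1, -0.06 for Ifngr1 and -0.05 for Ifnar2. In bulk chromatin, a mark carried by fewer cells and a lower level in each cell cannot be told apart.

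**Figure D2:**
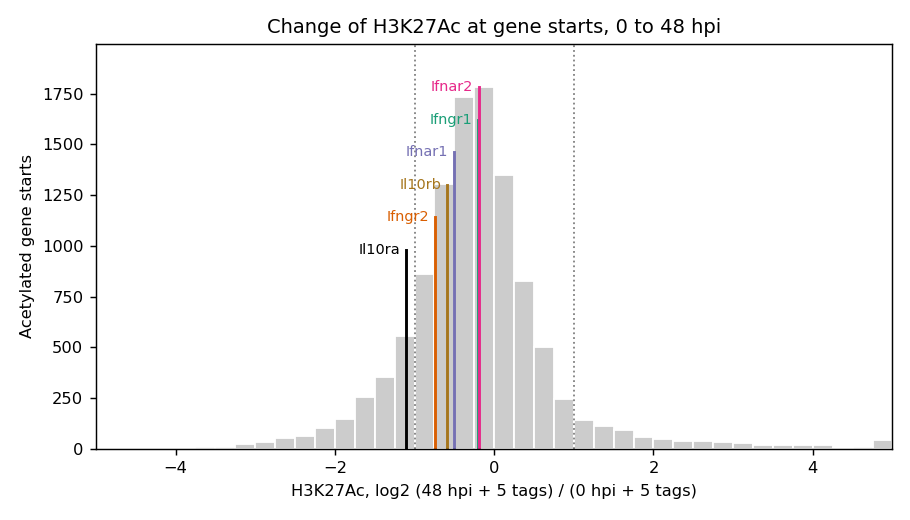
Histogram of the H3K27Ac change at the 10943 gene starts enriched at 0 or 48 hpi (x axis, log2 ratio with 5 tags added, the outermost bins also hold values beyond the axis; y axis, number of starts), with a line for each receptor gene and dotted lines at 2-fold. The 6 lines run from -1.10 (Il10ra) to -0.19 (Ifnar2), and only that of Il10ra lies beyond the dotted line.

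Between 24 and 48 hpi, Ifngr2 went from 1257 to 624 tags, a ratio of 0.496 (0.45 to 0.547), and was called lower (1.74% of all starts). Il10ra, with 902 and 454 tags, had a ratio of 0.503 (0.449 to 0.564), and its log2 value of -0.98 fell short of a call. The other 4 genes lay between -0.52 and -0.60. Before thinning, tags filled 34.5% and 16.5% of the positions at the Il10ra start at 24 and 48 hpi, and 47.4% and 22.9% at Ifngr2. Keeping 1 tag per position compresses such high counts, and this interval was not recomputed with a correction for that. With equal background all 6 were called lower in this interval (22% of all starts), and with equal signal in enriched bins 0 were (0.42% of all starts), with Ifngr2 at -0.61 and Il10ra at -0.59. At starts enriched at either time, 80.2% had a log2 value below 0 for this interval and the median was -0.28. No gene of the 6 had a transient rise or fall of H3K27Ac, that is, a level at 3, 12 or 24 hpi 2-fold beyond both 0 and 48 hpi (2.03% and 1.48% of all starts). With equal background, 3 of the 6 (Ifngr1, Ifngr2 and Ifnar2) had a transient rise, beside 10.6% of all starts, and with equal signal in enriched bins 0 had one.

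H3K4Me1 gave the genes another order at their starts. Ifngr2, highest in H3K27Ac, was lowest or second lowest in H3K4Me1 at every time, with 25, 67, 42, 22 and 21 tags. Il10ra was the highest at every time, with 127, 137, 110, 85 and 129. Ifngr1 had 55, 96, 90, 60 and 70 H3K4Me1 tags and Ifnar2 had 47, 57, 43, 27 and 24. Ifnar1 had 106, 100, 88, 64 and 53, and Il10rb had 95, 103, 74, 58 and 53. From 0 to 48 hpi none of the 6 was called in H3K4Me1 (3.34% of all starts higher, 9.69% lower). Relative to the median of all starts, Ifnar1, Ifnar2 and Il10rb lay at -0.67, -0.58 and -0.52 on the log2 scale, Ifngr2 at 0.06, Il10ra at 0.29 and Ifngr1 at 0.59. With 1 kb at the start instead of 3 kb, Ifnar1 and Il10rb passed 2-fold (-1.14 and -1.06). With equal background, the signs of Ifngr2 and Il10rb turned (0.56 and 0.06), and Ifngr1 was called higher (1.18, beside 13.9% of all starts).

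The one call in H3K4Me1 at a start was Ifngr2 at 3 hpi, where 25 tags became 67, a ratio of 2.68 (1.67 to 4.43), beside 1.55% of all starts called higher. It counted as a transient rise (1.02% of all starts). The added tags lay away from the start itself. In the 250 bp just downstream of the start no H3K4Me1 tag was found in any of the 5 libraries, while the 250 bp from -1250 bp held 4, 20, 8, 7 and 1. The call was lost in the 1 kb window (0.13 on the log2 scale) and in the 6 kb window (0.61). As deposited, the H3K4Me1 libraries of 0 and 48 hpi held up to 205 and 135 tags per position. Those of 3, 12 and 24 hpi held up to 2. Although 1 tag per position was kept here, the rise at 3 hpi cannot be told apart from this difference between libraries.

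The Ifngr2 start is also the richest of the 6 in CpG dinucleotides. The 250 bases before it hold 25 CpG, more than 86.6% of all gene starts, beside 8 for Il10ra, 10 for Il10rb, 11 for Ifngr1, 16 for Ifnar2 and 23 for Ifnar1, and a median of 9 for all starts. The upstream sequences of Ifngr2 and Il10ra, the genes at either end of this range, are shown with each CpG in capitals. They are read from the mm9 genome, 5′ to 3′ in the direction of the gene, and end at the base before the start (chr16:91547067-91547316, plus strand, and chr9:45077233-45077482, minus strand).
Ifngr2: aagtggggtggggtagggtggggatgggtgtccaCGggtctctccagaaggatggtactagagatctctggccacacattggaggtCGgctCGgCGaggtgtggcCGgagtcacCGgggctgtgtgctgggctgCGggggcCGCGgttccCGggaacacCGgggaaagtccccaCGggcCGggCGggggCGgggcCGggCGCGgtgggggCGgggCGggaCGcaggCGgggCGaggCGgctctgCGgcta
Il10ra: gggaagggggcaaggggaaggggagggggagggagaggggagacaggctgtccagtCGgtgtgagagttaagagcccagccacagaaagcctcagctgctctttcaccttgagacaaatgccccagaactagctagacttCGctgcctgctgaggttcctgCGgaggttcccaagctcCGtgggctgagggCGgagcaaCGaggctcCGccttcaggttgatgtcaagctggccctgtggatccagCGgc

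The starts (250 bases before to 50 after) were searched on both strands for letters bound by factors of the pathway and of the lineages. These were TTCNNNGAA (GAS, bound by Stat dimers), the ISRE (bound by Stat proteins with Irf9), TTGCNNNAA and TTNCGCAA (both labelled C/EBP-like here), GAGGAAG (PU.1-like) and an EBF-like palindrome. Among C/EBP-like letters with a shorter gap than in the first such pattern, only the second pattern was searched. Other C/EBP-like sites with that shorter gap would be missed. The 6 starts held 1 match in all, a GAS at the Ifnar1 start whose first base is at -54 relative to the start. Of 22345 gene starts, 7.81% held a GAS, 3.84% an ISRE, 8.82% and 1% the C/EBP-like letters, 13.5% the PU.1-like and 0.85% the EBF-like letters. The 250 bases before the Ifnar1 start (chr16:91485259-91485508, plus strand) are shown with the GAS in capitals.
Ifnar1: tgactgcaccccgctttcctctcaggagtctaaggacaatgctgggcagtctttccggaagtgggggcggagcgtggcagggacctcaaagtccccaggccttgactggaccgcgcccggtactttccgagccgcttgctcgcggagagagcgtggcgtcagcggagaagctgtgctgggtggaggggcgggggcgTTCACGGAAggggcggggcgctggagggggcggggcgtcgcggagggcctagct
The match describes these letters only. Binding of Stat proteins was not measured in these libraries.

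Over the windows of the intervals, with those at the starts included, changes in both directions were found. When each window was counted once, at the nearest of the 6 starts, 112 windows were kept, of which 84 were enriched for H3K27Ac at 0 or 48 hpi. The Ifnar1 windows at +33, +36 and +39 kb, each past 2-fold higher (1.68, 1.76 and 1.06), were not among the 112. They lie nearer the Ifngr2 start, whose own windows begin only at chr16:91524817, so the stretch before that was left out of these counts. Of these 84, 15 were called higher and 16 lower between 0 and 48 hpi, beside 36.3% higher and 16.1% lower among the enriched windows of all genes. Here and below, windows of all genes were counted for every gene, without the nearest-start rule, so stretches shared by neighbouring genes count more than once. The split depended on scaling: with equal background it was 24 higher and 10 lower, and with equal signal in enriched bins 30 higher and 8 lower, where the windows of all genes gave 43.4% and 11.2%, and 48.2% and 8.89%. The calls were not spread evenly. Of the enriched windows of Il10ra, 9 of 18 were lower, that at its start included, and 0 higher. Of those of Ifngr1, 2 of 11 were lower and 0 higher. Ifnar1 had 9 of 19 higher and 1 lower, Ifnar2 had 6 of 23 higher and 2 lower, Ifngr2 had 3 of 15 higher and 1 lower, and Il10rb had 3 higher and 3 lower of 15, with windows of the chromosome 16 cluster in more than one of these intervals.

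The largest loss lay upstream of Il10ra, the ligand-binding chain of the interleukin 10 receptor. In the window 12 kb upstream (chr9:45087733-45090732, between genes), H3K27Ac went from 1205 tags at 0 hpi to 514 at 3, 283 at 12, 180 at 24 and 117 at 48 hpi. The log2 change was -3.31, with a counting interval of -3.65 to -3.09 for the plain ratio, and it lay between -3.65 and -2.91 under every alternative run for this window. At 0 hpi this window held more H3K27Ac than the Il10ra start itself (982 tags), and at 48 hpi it held fewer than the windows at +3 and +15 kb in the gene body (223 and 207). H3K4Me1 in the same window was 327, 425, 409, 441 and 309 tags, a log2 change of -0.08 (0.81 with equal background). At equal totals H3K27Ac was lower at each successive time. With equal background it was not, the scaled tags being 256 at 12 and 343 at 24 hpi, before 141 at 48 hpi. At equal totals H3K4Me1 was never below 309 tags, and H3K27Me3 stayed between 5 and 13 tags.

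The neighbouring window at -9 kb fell with it, from 402 to 216, 88, 68 and 46 H3K27Ac tags, and there H3K4Me1 also fell, from 248 to 111 tags (-1.13, but -0.25 with equal background). Nearer the gene, the window at -6 kb had 1286, 872, 760, 747 and 450 H3K27Ac tags and that at -3 kb 1175, 533, 721, 750 and 354, log2 changes of -1.5 and -1.72. The window at -6 kb was the highest of all 6 intervals at 0 hpi and still the highest distal window of Il10ra at 48 hpi. Further out, the windows at -15, -18 and -21 kb fell from 199, 162 and 217 to 81, 48 and 68 tags. A downstream window at +21 kb went from 609 to 185 at 3 hpi and ended at 270 (-1.16, with -0.90 and -0.75 under equal background and equal signal in enriched bins). At equal totals all windows from -21 to 0 kb were called lower in H3K27Ac. Under the other 2 scalings those at -15 kb (-0.99 and -0.85) and 0 kb were not called, and the other 6 were. At equal totals the windows of the gene body from +3 to +15 kb lay between -0.04 and 0.28. The largest rise among enriched distal windows, at +18 kb, went from 112 to 158 tags (0.48) and was not called, and its summit lies between genes while the window reaches into BC049352.

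**Figure D3:**
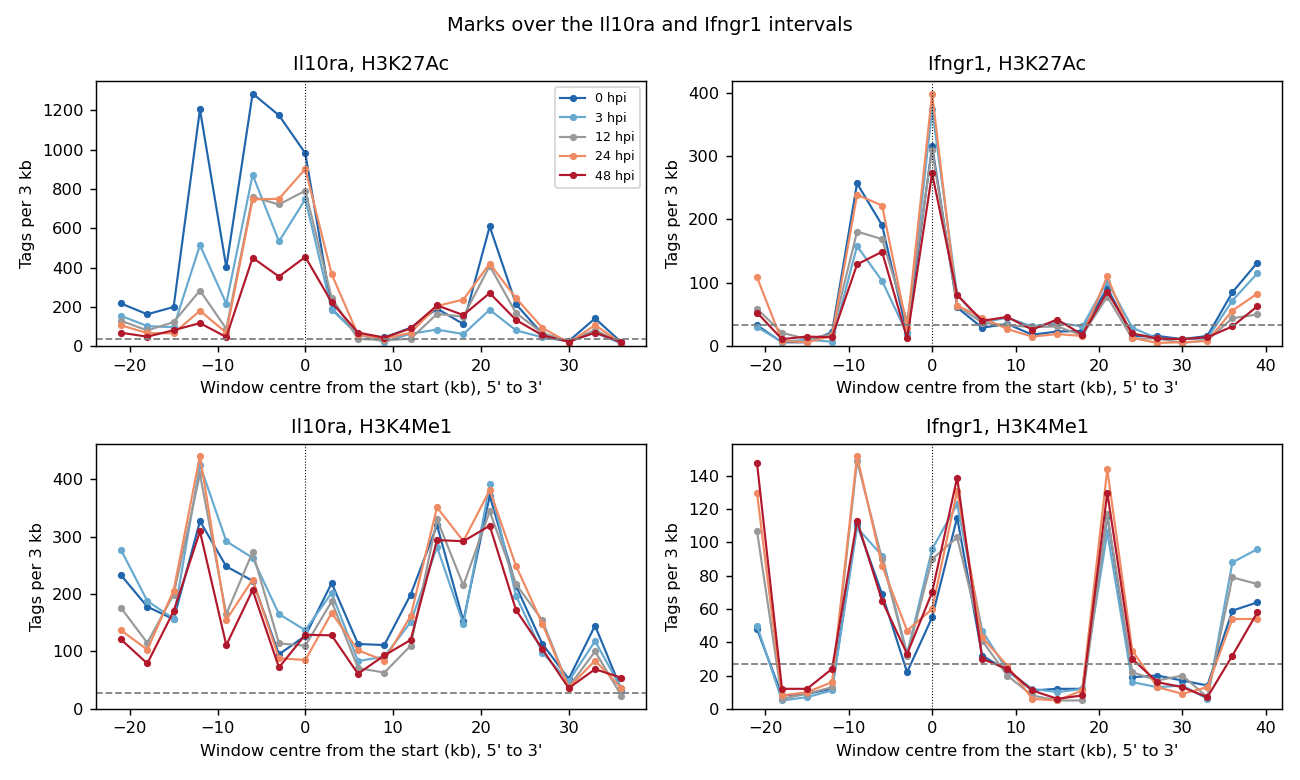
Tags per 3 kb window (y axis) by distance of the window centre from the start (x axis, kb, in the direction of transcription) over the Il10ra and Ifngr1 intervals at the 5 times, with H3K27Ac above and H3K4Me1 below. Each panel has its own y scale, the dashed line is the number of tags needed for enrichment and the dotted line is the start. H3K27Ac upstream of Il10ra falls from 1205 and 1286 tags at -12 and -6 kb to 117 and 450, while H3K4Me1 at -12 kb starts at 327 and ends at 309, at equal totals.

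The 300 bases around the highest 100 bp of H3K27Ac in the window 12 kb upstream of Il10ra (chr9:45088633-45088932, minus strand) are shown because this window changed most of the 6 intervals. Capitals mark the highest 100 bp, which held 72, 23, 34, 13 and 15 tags at the 5 times.
Il10ra -12 kb: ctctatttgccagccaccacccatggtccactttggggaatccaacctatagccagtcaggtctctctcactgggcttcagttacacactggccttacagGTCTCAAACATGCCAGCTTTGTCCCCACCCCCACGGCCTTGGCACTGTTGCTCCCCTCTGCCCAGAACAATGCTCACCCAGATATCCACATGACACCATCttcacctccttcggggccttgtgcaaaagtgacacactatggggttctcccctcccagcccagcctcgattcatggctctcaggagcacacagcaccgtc
None of the 6 letter patterns was found in it. In the 300 bases at the centre of acetylated windows of all genes, 8.17% held a GAS, 4% an ISRE, 10.1% and 0.44% the C/EBP-like, 11.6% the PU.1-like and 0.93% the EBF-like letters. No match says only that these letters are not in these 300 bases. The bases shown do hold ttgtgcaa, which read on the other strand is the first C/EBP-like pattern with a shorter gap. Neither C/EBP-like pattern searched covers it, so the absence of C/EBP-type sites cannot be read from this search.

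On chromosome 16 the largest gain lay in the space between Ifnar1 and Ifngr2. The window 36 kb downstream of the Ifnar1 start (chr16:91520009-91523008, between genes) had 310 H3K27Ac tags at 0 hpi, 542 at 3, 857 at 12, 1237 at 24 and 1063 at 48 hpi. The log2 change from 0 to 48 hpi was 1.76 (1.59 to 1.97 for the plain ratio), and it was called under every alternative run, with values up to 2.18. At 24 hpi the window held about as many H3K27Ac tags as the Ifngr2 start (1257), which lies nearer to it than the Ifnar1 start does. H3K4Me1 was already enriched at 0 hpi and went from 153 to 155, 258, 221 and 242 tags (0.64, with a call at 1.54 under equal background).

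The gain extended over the adjoining windows. At +39 kb H3K27Ac went from 410 to 860 tags (1.06), at +33 kb from 23 to 85 (1.68), at +30 kb from 24 to 66 (1.29) and at +27 kb from 58 to 167 (1.45). At +33 kb H3K4Me1 rose more than H3K27Ac, from 21 to 151 tags (2.58), and it passed the tags needed for enrichment at 12 hpi (54). Seen from Ifngr2, the window at -21 kb had 310, 364, 624, 771 and 521 H3K27Ac tags (0.74, with calls at 1 and 1.15 under equal background and equal signal in enriched bins) and was called in H3K4Me1, from 69 to 204 tags (1.5).

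Nearer the Ifngr2 start, which encodes the accessory chain of the interferon gamma receptor, H3K27Ac was lower at 48 than at 0 hpi. The window at -9 kb had 903, 832, 710, 865 and 478 H3K27Ac tags (-0.91) and that at -6 kb, which holds the pseudogene Gm7860, 260, 170, 182, 237 and 92 (-1.45). Inside Ifngr2, the windows at +6 and +9 kb rose from 53 to 114 and from 27 to 77 H3K27Ac tags (1.04 and 1.36). A weak window at +24 kb went from 10 to 37 tags (1.49), with H3K4Me1 from 19 to 58 (1.39).

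A second fall on this chromosome lay 21 kb upstream of Ifnar1, the chain of the type I interferon receptor that binds Tyk2. There H3K27Ac was 900, 740, 625, 675 and 355 tags (-1.33, with -0.92 under equal signal in enriched bins), and H3K4Me1 was 61, 100, 97, 63 and 44 (-0.43, with 0.40 under equal background). This window (chr16:91463009-91466008) holds the start of a long non-coding RNA gene, A930006K02Rik, so it is distal only with respect to protein-coding genes. Within Ifnar1 itself, the windows at +9, +12, +15 and +18 kb rose from 25, 25, 28 and 18 to 58, 59, 62 and 54 tags, low levels spread over the gene body. The windows at -21 kb and +36 kb thus changed in opposite directions under each scaling run.

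**Figure D4:**
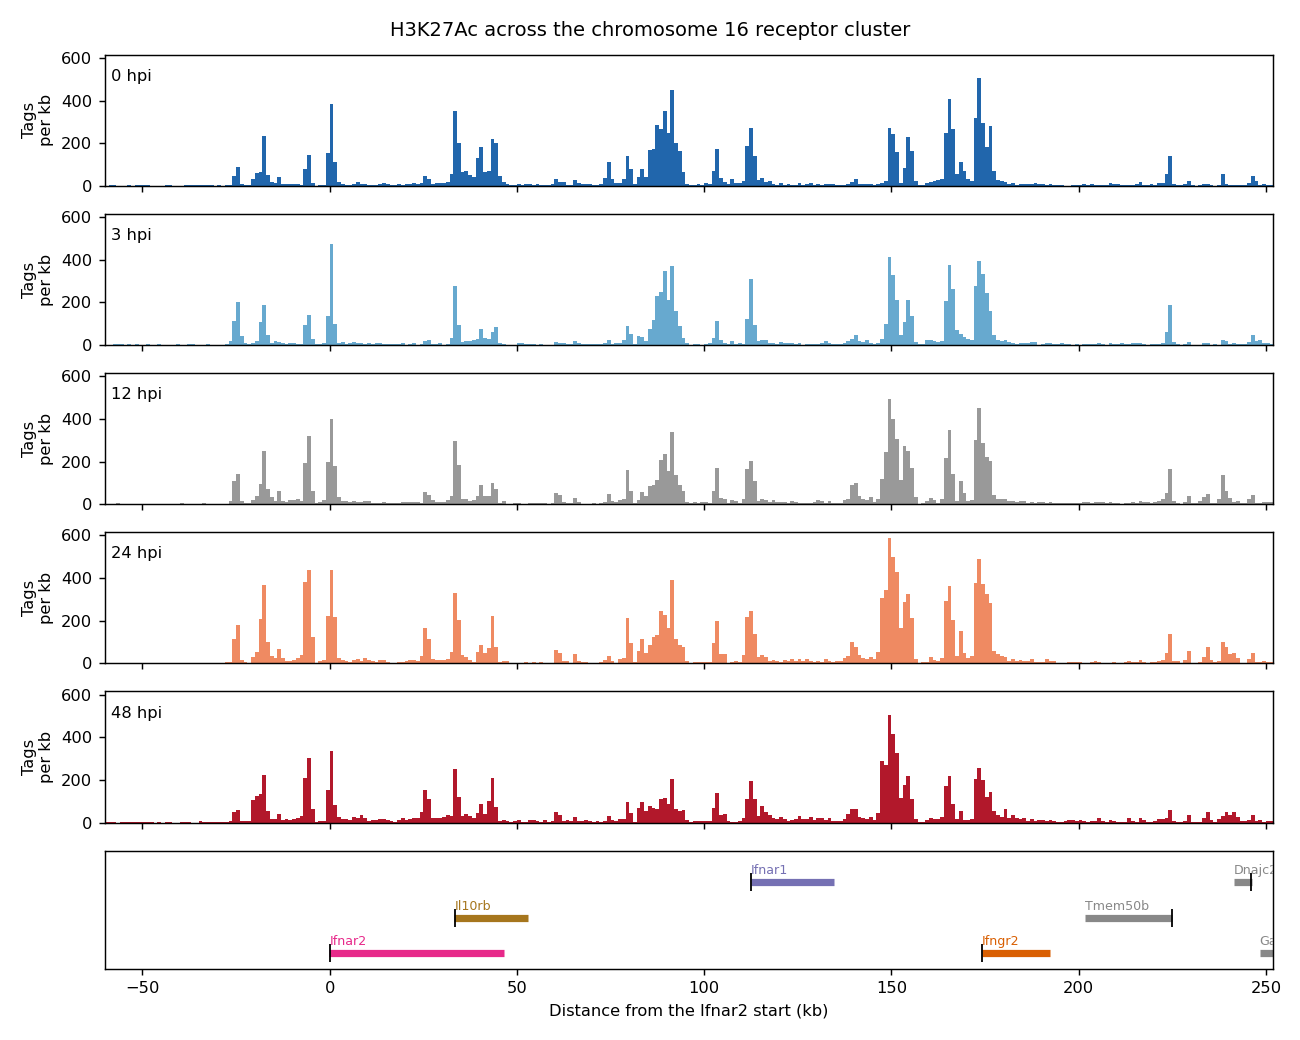
H3K27Ac tags per 1 kb bin (y axis, same scale in each panel) by distance from the Ifnar2 start (x axis, kb) at the 5 times, with gene records as bars and starts as ticks below. The bins around 150 kb, between Ifnar1 and Ifngr2, grow from 0 to 24 hpi, as do those 6 kb upstream of Ifnar2, while those from 85 to 95 kb shrink.

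Ifnar2, the ligand-binding chain of the type I interferon receptor, gained H3K27Ac upstream. In the window at -6 kb (chr16:91365595-91368594, between genes) it was 239, 260, 577, 951 and 593 tags, a log2 change of 1.29 (1.09 to 1.53) from 0 to 48 hpi. The count was highest at 24 hpi and remained above its 0 and 3 hpi values at 48 hpi. H3K4Me1 was enriched throughout, with 238, 257, 351, 318 and 248 tags (0.06, with 0.95 under equal background). Within Ifnar2, the window at +27 kb had 74, 42, 108, 248 and 231 H3K27Ac tags (1.58). It overlaps the window at -9 kb of Il10rb, with 69, 25, 71, 209 and 218 tags (1.59), since Il10rb starts inside the Ifnar2 record. At -21 kb H3K27Ac went from 69 to 206 tags (1.51), and this was the only window of the 112 enriched for H3K27Me3, with 50 tags at 0 and 48 at 48 hpi.

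The summits of these 2 windows, the highest distal ones of Ifnar1 and Ifnar2 at 48 hpi, are shown in the same way, both on the plus strand (chr16:91522109-91522408 and chr16:91366995-91367294). The highest 100 bp held 31, 54, 63, 73 and 65 H3K27Ac tags between Ifnar1 and Ifngr2, and 20, 12, 58, 72 and 51 upstream of Ifnar2.
Ifnar1 +36 kb: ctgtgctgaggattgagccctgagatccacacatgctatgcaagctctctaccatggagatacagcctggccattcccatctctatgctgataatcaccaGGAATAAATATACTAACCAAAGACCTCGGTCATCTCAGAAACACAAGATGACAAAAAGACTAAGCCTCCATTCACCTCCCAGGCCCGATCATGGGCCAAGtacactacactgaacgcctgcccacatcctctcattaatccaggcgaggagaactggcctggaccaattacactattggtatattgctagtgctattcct
Ifnar2 -6 kb: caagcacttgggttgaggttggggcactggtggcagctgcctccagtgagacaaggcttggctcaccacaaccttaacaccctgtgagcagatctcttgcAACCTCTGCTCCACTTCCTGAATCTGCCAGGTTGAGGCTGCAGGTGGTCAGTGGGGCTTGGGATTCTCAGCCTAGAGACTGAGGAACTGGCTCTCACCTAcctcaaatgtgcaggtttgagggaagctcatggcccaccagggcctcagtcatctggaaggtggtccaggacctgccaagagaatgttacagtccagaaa
Neither held any of the 6 letter patterns. Among the other 14 named summits, 1 match each was found at 3 of them: a GAS at Ifngr1 +36 kb, the PU.1-like letters at Ifngr2 +24 kb and the EBF-like letters at Ifnar2 +39 kb.

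Il10rb, the accessory chain of the interleukin 10 receptor, had differences in its gene body at 3 hpi. From 0 to 3 hpi the windows at +3, +6, +9 and +12 kb in the gene body went from 183 to 49, 348 to 128, 349 to 118 and 277 to 98 H3K27Ac tags. The windows then took different courses. At +9 kb the level was 179 tags at 12 hpi, 343 at 24 hpi and 348 at 48 hpi, beside 349 at 0 hpi. At +12 kb it stayed at 93, 104 and 101 tags (-1.41), and at +6 kb at 147, 147 and 155 (-1.14). The 48 hpi call at +12 kb held under the other 2 scalings (-1.16 and -1.01) and that at +6 kb did not (-0.88 and -0.73), while the falls at 3 hpi passed 2-fold in all 4 windows under each. At equal totals H3K4Me1 did not share this course, with 282, 265, 246, 286 and 267 tags at +9 kb and 136, 151, 133, 133 and 109 at +12 kb. All 4 windows also overlap the Ifnar2 record, so they belong to both genes.

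Among the windows counted once, 15 of the 66 enriched for H3K27Ac at 0 or 3 hpi were called lower at 3 hpi and 1 higher, beside 11.7% lower and 10.3% higher among such windows of all genes. This comparison was chosen after the values were seen. Il10rb had 7 lower of 11 and Il10ra 7 of 18, and Ifnar2, which shares windows with Il10rb, 7 of 16. Ifngr1, Ifngr2 and Ifnar1 had 0 lower of 10, 10 and 14. With equal background at 3 hpi 33 of 62 windows counted once were lower, beside 29.4% of those of all genes, and with equal signal in enriched bins 12 of 70 were, beside 8.89%.

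Ifngr1, the ligand-binding chain of the interferon gamma receptor, had the fewest called windows of the 6 at equal totals. Upstream, the windows at -9 and -6 kb had 257, 158, 181, 239 and 129, and 191, 103, 169, 222 and 149 H3K27Ac tags, log2 changes of -0.97 and -0.35, the latter 0.06 under equal signal in enriched bins. Both calls of this interval lay downstream within Il22ra2, the gene of the soluble interleukin 22 receptor: H3K27Ac went from 85 to 31 tags at +36 kb (-1.32) and from 132 to 63 at +39 kb (-1.01). With equal background the first remained called (-1.09) and the second did not (-0.76), and with equal signal in enriched bins neither did (-0.96 and -0.62). The largest rise among enriched distal windows, at +15 kb, was 23 to 42 tags (0.75, with 0.99 under equal background and a call at 1.13 under equal signal in enriched bins). In H3K4Me1 1 window was called, at -21 kb, with 48, 50, 107, 130 and 148 tags (1.53), where H3K27Ac was 33, 30, 59, 109 and 53.

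**Figure D5:**
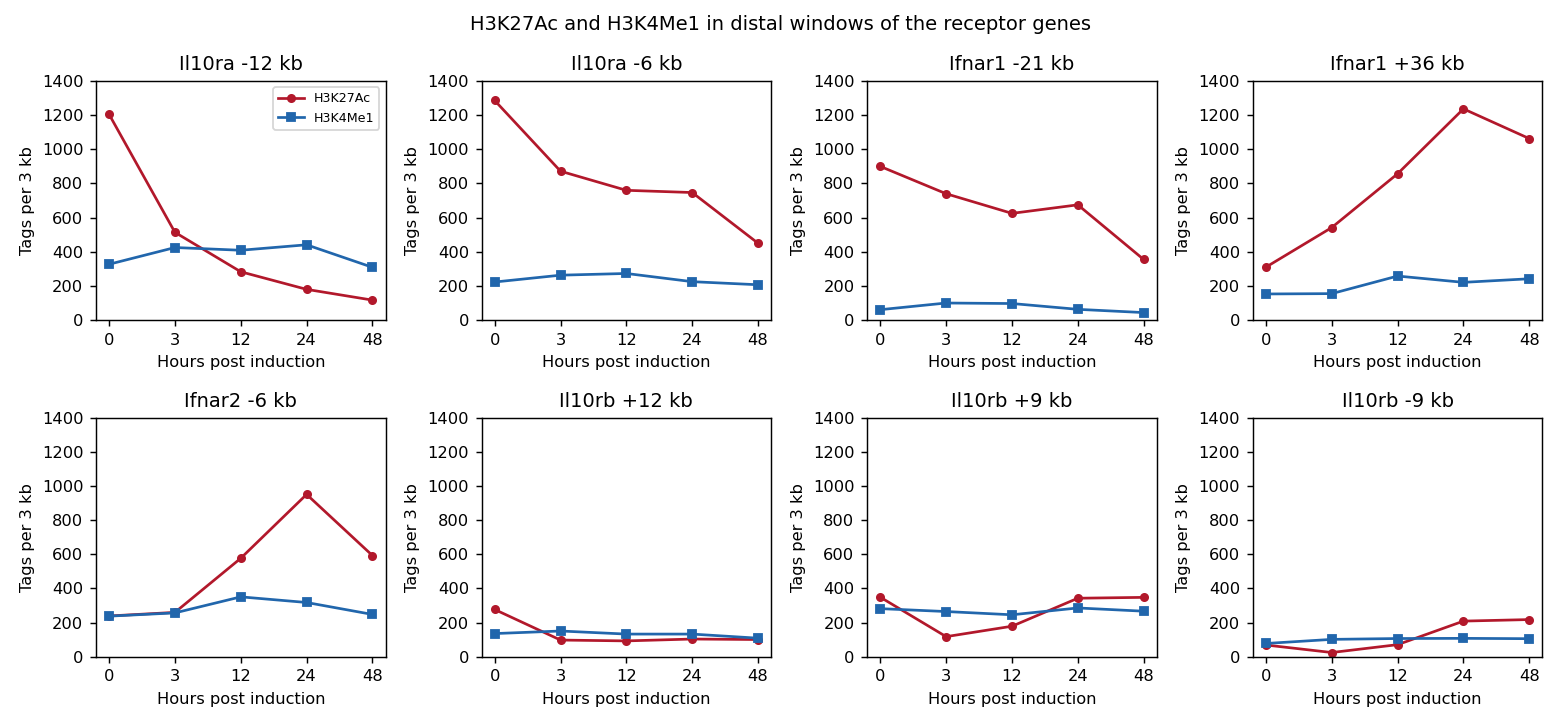
Tags per 3 kb (y axis, same scale throughout) against hours post induction (x axis, times evenly spaced) for 8 distal windows named by gene and distance from its start, with H3K27Ac as circles and H3K4Me1 as squares. H3K27Ac falls from 1205 to 117 tags at Il10ra -12 kb and rises from 310 to 1063 at Ifnar1 +36 kb, while H3K4Me1 lies between 44 and 441 tags in all 8, at equal totals.

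Of the 112 windows counted once, 85 were enriched for H3K4Me1 at 0 or 48 hpi, of which 10 were called higher and 6 lower (25.2% and 11.2% of enriched windows of all genes). With equal background these counts were 41 and 0 of 97, beside 50.1% and 1.64% of those of all genes. The Ifnar1 window at +33 kb, called higher in H3K4Me1 (2.58), is in none of these counts. Windows enriched for H3K27Ac numbered 61, 57, 71, 78 and 82 of 112 at the 5 times. In 1 kb bins, the length enriched for H3K27Ac went from 24 to 42 kb in the Ifnar1 interval, from 33 to 54 kb for Ifnar2, from 21 to 30 kb for Il10rb, from 14 to 19 kb for Ifngr1 and from 24 to 26 kb for Ifngr2, and from 47 to 41 kb for Il10ra. The windows of all genes that were enriched numbered 78444 at 0 hpi and 117556 at 48 hpi.

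The other genes of the pathway were compared at their starts by H3K27Ac from 0 to 48 hpi, against the same 9.29% lower and 5.37% higher. Of the 7 kinases and transcription factors, 1 was lower and 0 higher, and the median of the 7 was -0.20. Jak1 and Jak2, kinases bound to the receptor chains, lay at -0.20 and 0.39 and Irf9 at -0.27. Tyk2, the kinase bound by Ifnar1 and Il10rb, had 155, 169, 408, 424 and 192 tags (0.30). All 7 were enriched at 0 and 48 hpi.

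Of the 5 inhibitors, 1 was higher and 1 lower. Socs3, which blocks Jak kinases bound to cytokine receptors, had 122, 588, 321, 519 and 366 H3K27Ac tags (1.55, or 0.54 in 1 kb), while H3K27Me3 at its start fell from 58 to 18 tags (-1.45). Usp18, which holds down type I interferon signalling at Ifnar2, had 151, 197, 117, 92 and 70 (-1.06). Socs1, Pias1 and Ptpn2 lay at -0.61, -0.70 and 0.39. Usp18 was called at equal totals but not under the other 2 (-0.81 and -0.66).

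Of the 12 targets, 1 was higher and 0 lower. Bcl3 had 68, 76, 166, 299 and 230 tags (1.69, or 0.72 at its most acetylated start). The interferon-induced genes Gbp2, Gbp3, Ifit1, Ifit3, Isg15 and Mx1 lay between -0.97 and -0.50, and Irf1 at -0.40, none of them called. The median of the 12 was -0.45, beside -0.14 for all starts. The listed targets not named here lay above this median of the 12, and none of them was called. Uncalled targets were not recomputed one by one under the other scalings.

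Of the 4 ligands, none was enriched for H3K27Ac at 0 or 48 hpi, and the calls rest on few tags: Ifnb1 went from 4 to 16, Il10 from 5 to 19 and Ifng from 15 to 5. H3K4Me1 was called higher at Ifnb1 (16 to 85 tags) and Il10 (24 to 68 tags). Of the 6 other class II cytokine receptors, 2 were lower and 0 higher, namely Ifnlr1, the interferon lambda receptor chain that pairs with Il10rb, from 20 to 3 tags, and Il20ra from 98 to 37. Under both other scalings Ifng was not called, and Il20ra was not with equal signal in enriched bins (-0.92). Of these 6, Il20ra was the one enriched for H3K27Ac at 0 and at 48 hpi.

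Of the 7 protein-coding neighbours whose starts lie within 150 kb of the cluster, 1 was called lower. Tmem50b, next to Ifngr2, had 198, 253, 231, 195 and 89 H3K27Ac tags (-1.11), with values under 2-fold (-0.99 to -0.71) with another thinning, under both other scalings, in 1 kb and 6 kb and with repeated tags kept. Gart, Son and Donson had 561 to 470, 615 to 535 and 215 to 126 tags (-0.25, -0.20 and -0.75), and Dnajc28 72 to 62 (-0.20). Olig1 and Olig2, on the other side of the cluster, had at most 8 tags at any time.

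The genes whose 12 changes in the 3 marks came closest to each receptor gene, among genes of similar mean H3K27Ac, were Gtf3c2 and Rpl37 for Ifngr1 (root mean square distance 0.13 and 0.14 on the log2 scale). They were B2m and Lpxn for Ifngr2 (0.25 and 0.26), Myst1 for Ifnar1 (0.23) and Zfp408 and Arhgap1 for Ifnar2 (0.14 and 0.19). For Il10ra they were Cmtm7 and Rnf167 (0.19 and 0.20) and for Il10rb Gm5113 and Zfp146 (0.16 and 0.19). The median distance of all genes compared lay between 0.50 and 0.58. Zfp408 and Arhgap1 (both on chromosome 2), as well as Gm5113 and Zfp146 (both on chromosome 7), had nearly the same tags in each pair at all 5 times (565 and 566, and 550 and 553, at 0 hpi). Whether their start windows overlap was not checked, so the genes of a pair may not be separate measurements. No receptor gene was among the closest of another.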

How the data were processed

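ChIP-seq for H3K27Ac, H3K4Me1 and H3K27Me3 was performed by the authors in C10 cells at 5 times, with 1 library each. By the paper's account, reads were aligned to mm9 with Eland or Bowtie without mismatches and filtered for unique, non-identical tags. Which aligner served which library is not given in the sources used here. The deposited files were not alike in repeated positions. For H3K4Me1 a position held up to 205 and 135 tags at 0 and 48 hpi, and up to 2 at the other times. For H3K27Me3 it held 1 at 0 and 48 hpi and up to 2 at the other times, and for H3K27Ac up to 2 throughout. Whether these libraries were processed differently is not given. The deposited files hold positions of 36 bp tags without strand, not counts or scores: the other unit of the deposited columns is a start and an end coordinate. Tags were placed at their middle, 1 tag per position was kept, and libraries were thinned to 15.22 M (H3K27Ac), 10.91 M (H3K4Me1) and 15.34 M (H3K27Me3) tags. The start of a gene was the median of its largest group of coding transcript starts (GENCODE vM1, NCBIM37), with gaps up to 500 bp. Windows with a Poisson tail below 0.001 over the mean of windows holding a tag were called enriched. Log2 ratios have 5 tags added, and a call needs 2-fold. No test was run between times. Exact Poisson (tags) and Clopper-Pearson (ratios) intervals express counting error alone, since amplified copies are not independent molecules. The ISRE was searched as TTTC, 2 free bases, TTTC and the EBF-like letters as TCCC, 2 free bases, GGGA. The members and lists were chosen with earlier results of these data known. By rule, the text names the 6 genes, in each interval the enriched distal window with the largest H3K27Ac rise, the largest fall and the highest level at 48 hpi, list genes past 2-fold, every neighbour and the 2 closest genes of each member; further windows and genes were named after their values were seen, and some genes that the rule names are not reported here. Sequences were read from the mm9 genome. Analyses used Python 3.11.15 with numpy 2.4.6, scipy 1.17.1 and matplotlib 3.10.9.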

Additional observations from a re-analysis of the deposited data

How the results depend on the processing

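Values at equal total tags were recomputed with all tags scaled by total, equal background (10 kb bins), equal signal in always-enriched bins, tags as deposited, a correction for 1 tag per position, a second thinning and 1 tag added, with other windows and starts for gene starts, and with a stricter Poisson tail and a shifted grid for windows. Of 250 recomputed summary values, 228 stayed within the counting interval or within 1.5 times the count, and 22 moved. For a median of the 6 starts, the range used ran from the median of the single genes' lower bounds to that of their upper bounds. It is not an interval of the median itself. A count of 0 that stayed 0 was scored as unchanged. With equal background, the median H3K27Ac change of the 6 starts was -0.28, 0 genes were lower, 0 were lowest at 48 hpi and 3 had a transient change; 24 windows were higher and 10 lower, 33 were lower at 3 hpi and 6 starts were lower from 24 to 48 hpi (both chosen after seeing the data), and 3 genes of the pathway and neighbour lists were lower (6 at equal totals). There, the median H3K4Me1 change was 0.31 (-0.50 at equal totals), 1 gene was higher, and 41 windows were higher and 0 lower. With equal signal in enriched bins, the H3K27Ac median was -0.13, 0 genes were lower, 2 were lowest at 48 hpi, 30 windows were higher and 8 lower, 0 starts were lower from 24 to 48 hpi (1 at equal totals), and 2 genes of those lists were lower. In 1 kb at the start, 2 genes were lower in H3K4Me1, and with 1 tag added 10 H3K4Me1 windows were lower. The alternatives that moved these values are different scalings, a narrower window and a smaller added count by construction; which scaling is nearer to the cells was not tested. Of 372 recomputed values of single genes and windows, 320 stayed within their counting interval, 52 moved and 0 called values changed sign. At 2 to 12 H3K27Me3 tags per start, counting intervals are wide (1.34 to 55.2 for the ratio of Ifnar1 from 3 to 12 hpi). No paired analysis was possible because each group holds 1 library.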
